A study of Mus musculus with 4 samples.

Results

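The genes described here are 35 enzymes and regulators of cholesterol and fatty acid synthesis, taken by symbol from the 23337 genes counted in mouse lymphatic endothelial cells. They were chosen by function, with no threshold on a fold. These genes, and the lists used below, were chosen with earlier results of these data known. Each of the 35 reached 20 counts in 1 library or more, as did 18949 of the 23337 genes. They comprise 2 enzymes of acetyl-CoA supply, 7 of the mevalonate pathway, 10 of the steps through squalene to cholesterol, 1 sterol transfer protein, 5 regulators of the SREBP system, 3 genes of fatty acid synthesis proper and 7 elongases and desaturases.

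There were 4 groups of 1 library each: homozygous mutant cells after culture, wild type cells after culture, homozygous mutant cells before culture and wild type cells before culture. The labels call the mutant a deletion, and the series title names an enhancer bound by GATA2, without a label that places the deletion in the genome. Cells positive for LYVE1 (a lymphatic marker) and VECAD (a cadherin of endothelium) and negative for the leukocyte marker CD45 were sorted from the dorsal anterior region of embryos at day 14.5, with a whole litter pooled for each genotype. The libraries before culture came straight from that sort. The libraries after culture came from the rest of the same cells, kept for 7 days on OP9, a mouse stromal line that supports blood cell formation, with FLT3L, IL3 and SCF at 100 ng/ml each, and sorted again for LYVE1 and VECAD. Time in culture, medium, feeder cells and second sort cannot be told apart.

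With 1 library per group no value has a replicate, no p-value was computed, and every interval is a 95% interval for counting error. Duplicate read pairs had been removed without molecular identifiers, so the counts only approximate independent molecules. The intervals cover no variation between litters, sorts or library preparations and so understate the full error. Gene counts came to 3931557 in mutant cells after culture, 1694669 in wild type cells after culture, 7943587 in mutant cells before culture and 3987150 in wild type cells before culture. Of all read pairs, 10.5% and 9.94% were counted in genes in mutant and wild type cells after culture, and 8.79% and 7.94% before culture. Pairs that did not align made up 56.2% and 67.6% after culture, and 34.1% and 21.4% before culture, in the same order of genotypes. For each gene count, 2.89 and 2.01 pairs lay in no annotated gene after culture, and 6.10 and 8.38 before culture. The part of these differences in the culture folds was not tested. Levels are in CPM, library-size-scaled counts, adjusted by the TMM factors of edgeR, and levels of different genes are compared per kilobase of exon. A fold is the ratio of 2 scaled levels, and a gene was called where its whole interval lay beyond 2-fold. In bulk RNA, fewer cells of a type and less RNA per cell cannot be told apart.

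The label was checked against markers fixed for each cell type. The summed level of 10 endothelial markers was 11725 CPM in mutant and 12835 CPM in wild type cells after culture, and 4474 CPM in mutant and 4192 CPM in wild type cells before culture. The 8 lymphatic markers summed to 6324 and 7517 CPM in mutant and wild type cells after culture, and to 7177 and 7590 CPM in mutant and wild type cells before culture. These sums rest on abundant markers: Lyve1 had culture folds of 3.08 and 3.29 in mutant and wild type cells, while 5 of 7 lymphatic markers tested were below 1 with culture in each genotype and 4 were called lower, Prox1, Pdpn, Mmrn1 and Reln. The median fold of the 7 was 0.282 in mutant and 0.408 in wild type cells. Ccl21a was at 0 in all 4 libraries and Pdpn at 0 in wild type cells after culture. Genes that neither cell type should express were used to estimate stray reads. Over 1431 olfactory and vomeronasal receptor genes these came to 1.61 and 0.537 counts per kb in mutant and wild type cells after culture, and to 8.34 and 6.64 counts per kb in mutant and wild type cells before culture. At that rate the median synthesis gene would owe 3.33% and 2.36% of its counts to such reads in mutant and wild type cells after culture, and 8.62% and 12.8% in mutant and wild type cells before culture. The highest share was 21.0% and 17.3% in mutant and wild type cells after culture, and 24.9% and 38.3% before culture. In wild type cells before culture it was 38.3% for Acacb, 31.8% for Scd1 and 24.4% for Srebf1.

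Cells build cholesterol from acetyl-CoA, which is turned into mevalonate, the precursor of isoprenoids, squalene and finally sterols. Fatty acids come from the same acetyl-CoA through acetyl-CoA carboxylase and fatty acid synthase, and are then lengthened by elongases and given double bonds by desaturases. Both branches are under the SREBP transcription factors, membrane proteins that SCAP carries from the endoplasmic reticulum to the Golgi for cleavage when sterols are low and that the INSIG proteins hold back when sterols are high. Endothelial cells can also take up lipid from lipoproteins and pass it on to the tissue.

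All 35 genes were detected in every library. The count of the median gene was 155 in mutant and 76 in wild type cells after culture, and 381 in mutant and 147 in wild type cells before culture. Over those 18949 genes the median count was 45, 17, 136 and 73 in the same libraries. Per length, the synthesis genes spanned 2.29 to 66.6 CPM per kb in mutant cells after culture, 2.26 to 86.8 in wild type cells after culture, 3.63 to 75.2 in mutant cells before culture and 3.48 to 62.5 in wild type cells before culture. Scd2, which encodes a stearoyl-CoA desaturase, had the highest level per kb in each of the 4 libraries. Acacb, the acetyl-CoA carboxylase associated with mitochondria, had the lowest in 3 libraries. The exception was wild type cells after culture, where Acat2, the cytosolic acetoacetyl-CoA thiolase, and Scd1, another stearoyl-CoA desaturase, lay slightly below Acacb, with intervals that overlapped.

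**Figure D1:**
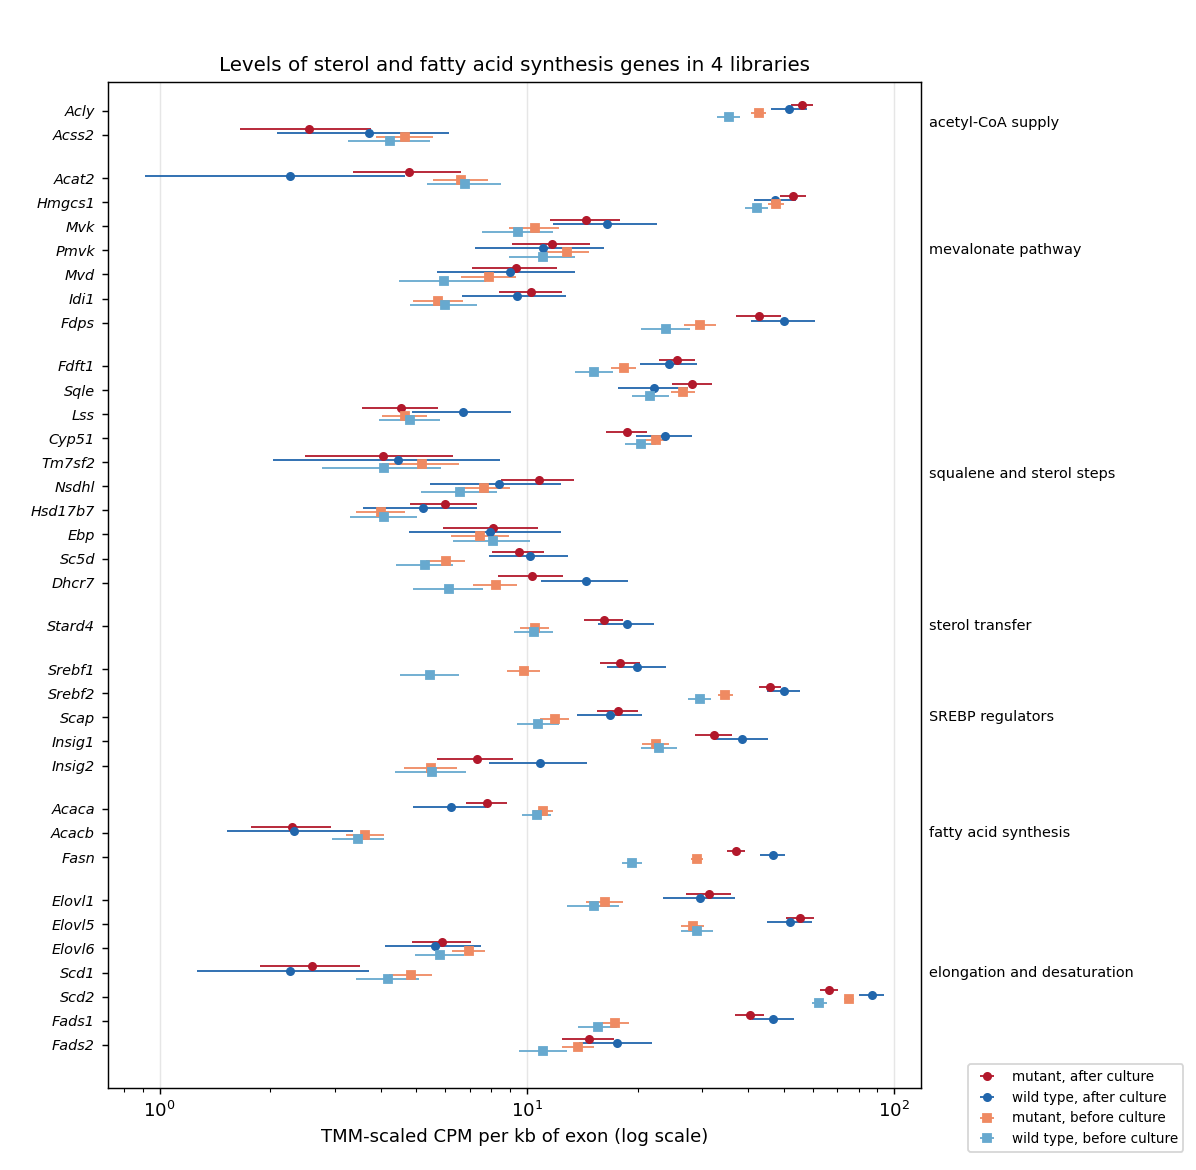
Level of each of the 35 genes in CPM per kb of exon on a log axis, by role, with 95% counting intervals, for mutant cells after culture, wild type cells after culture, mutant cells before culture and wild type cells before culture (1 library each). Scd2 lies at 66.6, 86.8, 75.2 and 62.5 CPM per kb in these libraries, and Srebf1 and Fads1 show the cultured libraries to the right of both libraries before culture.

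The start regions of a few of these genes are shown because SREBP factors act at sterol regulatory elements near gene starts, together with the CCAAT-binding factor NF-Y. RefSeq windows of 250 bases before the start on GRCm38.p6 were matched for 28 of the 35 genes. Searched on both strands, the sterol element TCACCCCAC occurred in 1 of these genes, Hmgcs1, and in 0.496% of 32851 windows of all genes; the looser form TCACNCCAC, which contains it, also occurred in Hmgcs1 alone and in 1.05% of all windows. The E-box CACGTG, which reads the same on both strands, occurred in 6 of the genes (Dhcr7, Elovl5, Hsd17b7, Insig1, Sc5d and Scap), in 16.2% of their 37 windows against 6.02% of all windows. CCAAT occurred in 22 of the 28 genes, in 62.2% of their windows against 33.8% of all windows. A match describes letters only and says nothing of whether a factor binds there. In the windows below the capitals mark TCACCCCAC, CACGTG and CCAAT, the last written ATTGG where it lies on the other strand.
Hmgcs1, chr13:119690101-119690350, plus strand: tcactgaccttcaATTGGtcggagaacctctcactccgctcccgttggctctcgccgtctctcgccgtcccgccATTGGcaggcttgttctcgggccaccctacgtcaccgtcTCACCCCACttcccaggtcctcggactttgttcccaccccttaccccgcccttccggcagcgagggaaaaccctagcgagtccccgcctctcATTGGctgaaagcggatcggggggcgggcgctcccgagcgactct
Insig1, chr5:28071162-28071411, plus strand: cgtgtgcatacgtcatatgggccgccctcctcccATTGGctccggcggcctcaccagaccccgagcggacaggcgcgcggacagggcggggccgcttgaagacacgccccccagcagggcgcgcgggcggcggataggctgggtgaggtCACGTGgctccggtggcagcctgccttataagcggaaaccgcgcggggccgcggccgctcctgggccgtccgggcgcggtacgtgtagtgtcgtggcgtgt
Srebf1, chr11:60210472-60210721, minus strand: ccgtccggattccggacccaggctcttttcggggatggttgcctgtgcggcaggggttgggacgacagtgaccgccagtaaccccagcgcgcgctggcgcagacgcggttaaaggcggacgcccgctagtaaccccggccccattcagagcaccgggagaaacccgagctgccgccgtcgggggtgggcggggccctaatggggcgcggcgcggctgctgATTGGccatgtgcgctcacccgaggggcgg
Fasn, chr11:120824548-120824797, minus strand: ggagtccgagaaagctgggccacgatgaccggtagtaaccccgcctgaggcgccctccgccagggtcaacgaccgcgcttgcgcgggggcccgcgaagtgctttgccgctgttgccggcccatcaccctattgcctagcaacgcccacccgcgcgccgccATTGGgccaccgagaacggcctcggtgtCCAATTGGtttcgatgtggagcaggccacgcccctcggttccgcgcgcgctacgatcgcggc
The Hmgcs1 window holds TCACCCCAC at -137 to -129 from the start and CCAAT on the opposite strand at 3 places. The Insig1 window holds CACGTG at -101 to -96. The Fasn window holds CCAAT on both strands in the overlapping run CCAATTGG. The Srebf1 window belongs to 1 of 3 RefSeq starts of the gene.

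The comparison of cells after and before culture asked how 7 days on OP9 cells went with synthesis gene levels in each genotype. In mutant cells the desaturase gene Fads1 was called higher, and in wild type cells Fads1, the regulator Srebf1 and the fatty acid synthase gene Fasn were called higher. None of the 35 was called lower in either genotype. Most differences were smaller than 2-fold and their direction rests on the scaling. The median log2 fold of the 35 genes was 0.36 in mutant cells and 0.60 in wild type cells with TMM, but -0.092 and -0.023 without the TMM factor, which lowers every log2 fold by 0.45 in mutant and 0.62 in wild type cells. A scaling factor moves the synthesis genes and the median of all genes tested alike, so the distance between them does not depend on it. The median of the synthesis genes lay 0.45 above that of all genes in mutant cells and 0.65 above it in wild type cells. In these genotypes 25 and 30 of the 35 lay above the median of all genes. With stray reads subtracted these distances were 0.30 and 0.45.

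The 1 gene called higher in mutant cells was 2.86% of the 35, against 5.19% of all 18807 genes tested, and the 3 called higher in wild type cells were 8.57%, against 8.17% of 17154 genes. The 0 called lower stand against 3.62% of genes in mutant cells and 5.77% in wild type cells. The share called higher was thus below or near the background. With the milder criterion of an interval wholly above 1, 18 of 35 genes (51.4%) were higher in mutant cells, against 32.4% of all genes, and 19 of 35 (54.3%) in wild type cells, against 33.9%. An interval wholly below 1 was found for 6 genes (17.1%) in mutant cells, against 27% of all genes, and for 3 (8.57%) in wild type cells, against 27.3%. Without the TMM factor this balance turned: intervals lay wholly above 1 for 5 genes and wholly below 1 for 14 in mutant cells (15.9% and 50.1% of all genes), and for 5 and 9 in wild type cells (15.6% and 50.6% of all genes). The 5 were Idi1, Srebf1, Elovl1, Elovl5 and Fads1 in mutant cells, and Fdps, Dhcr7, Srebf1, Fasn and Fads1 in wild type cells. Since no replicate enters these intervals, the shares describe these libraries and not the conditions. More counts also give narrower intervals, and the median count of the synthesis genes was above that of all genes in every library. Shares of intervals clear of 1, here and below, are therefore not fully comparable between the 35 genes and all genes.

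The genotypes were alike in direction for most of the 35 genes, and how many of all genes were alike was not computed. Taken singly, 24 of 35 genes in mutant and 28 in wild type cells had a culture fold above 1. Among all genes tested, these were 8691 of 18807 in mutant and 8380 of 17154 in wild type cells. Of the 35 genes, 23 had a fold above 1 in both genotypes, 6 below 1 in both, and 6 differed; without the TMM factor 12 lay above 1 in both and 16 below 1 in both. The 12 were Elovl1, Elovl5, Fads1, Fdft1, Fdps, Idi1, Insig1, Mvk, Sc5d, Scap, Srebf1 and Stard4. Across the 35 genes the log2 folds of the 2 genotypes, which share no library, had a Pearson correlation of 0.816, as a description over genes that are not independent; over 17910 genes with a count in every library it was 0.769. The fold in wild type cells was above that in mutant cells for 27 of the 35 genes with TMM and for 20 of 35 without it. Over the 17910 genes it was above for 9308 with TMM, and the number without it was not computed.

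**Figure D2:**
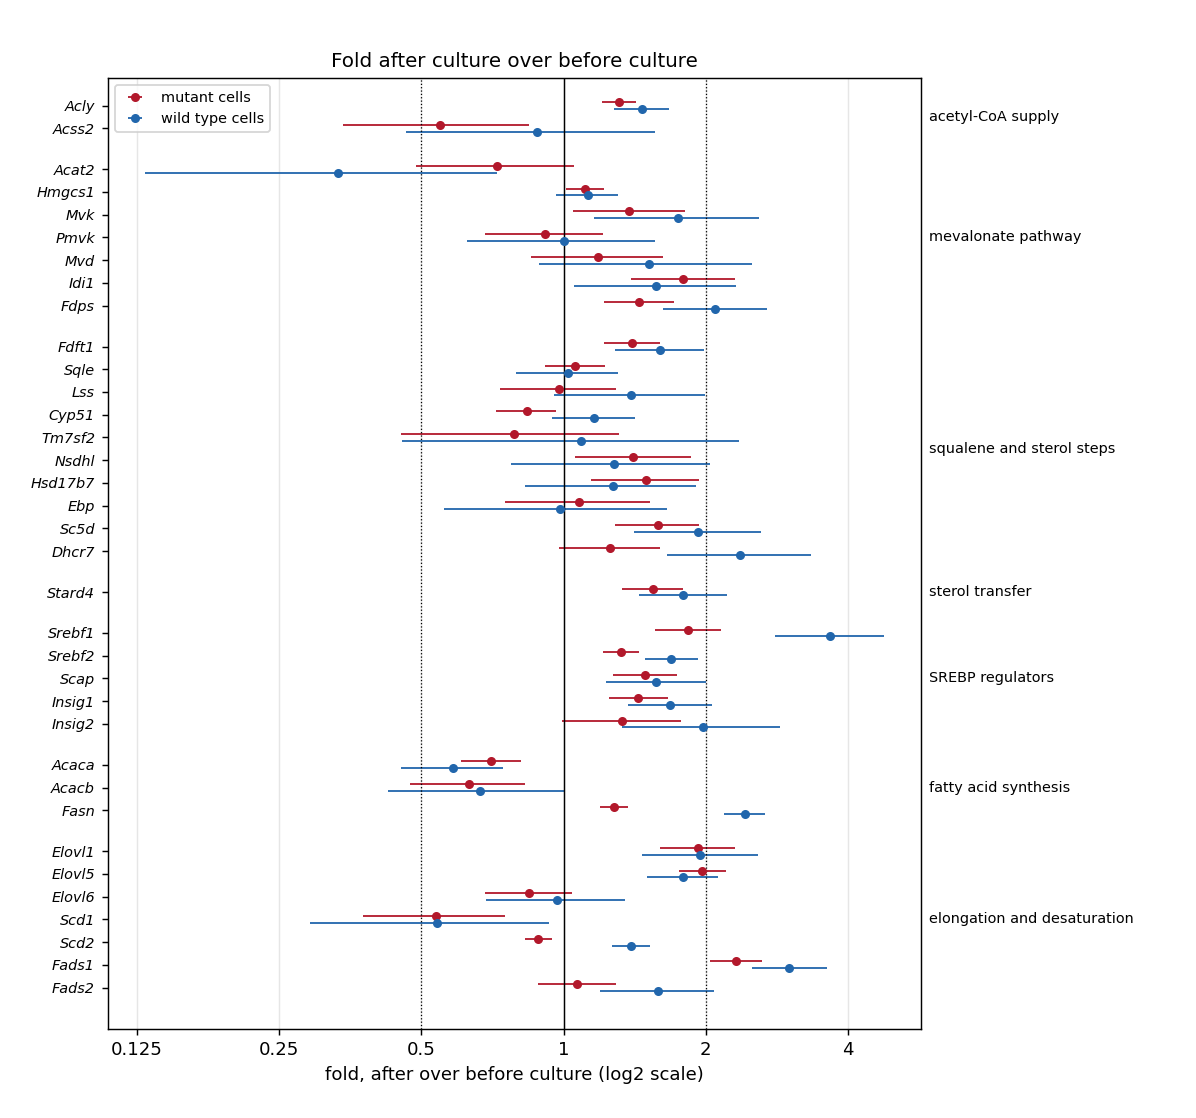
Fold after culture over before culture for each of the 35 genes on a log2 axis with 95% counting intervals, in mutant and wild type cells, with dotted lines at 2-fold. Fads1 lies beyond the upper line in both genotypes, Srebf1 and Fasn in wild type cells, and no gene has its whole interval beyond the lower line; without the TMM factor every point moves left by 0.45 (mutant) or 0.62 (wild type) on the log2 scale.

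Among the regulators, Srebf1, whose products SREBP-1a and SREBP-1c drive fatty acid synthesis genes, had the largest culture fold of the 35 in wild type cells. It was at 77.2 CPM in mutant and 85.8 CPM in wild type cells after culture, and at 42.1 CPM in mutant and 23.5 CPM in wild type cells before culture. Both cultured libraries were above both libraries before culture, and the wild type library before culture was the lowest. The culture fold was 1.83 (1.56 to 2.15) in mutant cells and 3.66 (2.81 to 4.76) in wild type cells. These folds kept their direction without the TMM factor and with the estimated stray reads subtracted. Exons of Srebf1 share 107 bases with Rai1 on the opposite strand, and the strand setting of the authors' counting is not given in the sources used here.

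Srebf2, whose product mainly drives sterol genes, was the most highly counted regulator, at 233 and 254 CPM in mutant and wild type cells after culture and 176 and 150 CPM in mutant and wild type cells before culture. Its culture fold was 1.32 (1.21 to 1.44) in mutant and 1.69 (1.49 to 1.92) in wild type cells. Scap, the escort of the SREBP proteins, was at 74.8 and 71.3 CPM in mutant and wild type cells after culture and at 50.3 and 45.4 CPM in mutant and wild type cells before culture. Insig1, whose product retains SCAP in the endoplasmic reticulum, was at 87.0 and 104 CPM in mutant and wild type cells after culture and at 60.5 and 61.8 CPM in mutant and wild type cells before culture. Insig2, which encodes the related retention protein, was at 21.5 and 32.0 CPM in mutant and wild type cells after culture and at 16.2 and 16.3 CPM in mutant and wild type cells before culture. All 5 regulators had a culture fold above 1 in both genotypes; without the TMM factor the fold of Srebf2 was below 1 in mutant cells and that of Insig2 likewise. Except for Srebf1 in wild type cells, none of the 10 regulator folds was called.

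In the mevalonate pathway no gene was called. Hmgcs1, the cytosolic HMG-CoA synthase early in the pathway, was at 185 and 165 CPM in mutant and wild type cells after culture and at 166 and 147 CPM in mutant and wild type cells before culture. Its level was similar in all 4 libraries, with culture folds of 1.11 (1.01 to 1.22) in mutant and 1.12 (0.964 to 1.31) in wild type cells, both below 1 without the TMM factor. The annotation places the antisense gene Gm48342, which the files do not count, over 458 bases of its exons. Idi1, isopentenyl diphosphate isomerase, had culture folds of 1.79 (1.39 to 2.31) and 1.57 (1.05 to 2.31) in mutant and wild type cells, and Fdps, farnesyl diphosphate synthase, of 1.44 (1.21 to 1.71) and 2.10 (1.62 to 2.70). Acat2, at the head of the pathway, had culture folds of 0.724 (0.487 to 1.05) and 0.334 (0.130 to 0.722), the last resting on 7 counts in wild type cells after culture. Mvk, Pmvk and Mvd, the kinases and the decarboxylase that follow mevalonate, had folds between 0.914 and 1.75 over both genotypes.

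Among the 10 genes of the squalene and sterol steps no gene was called either. Sc5d, lathosterol oxidase, was at 45.5 and 48.7 CPM in mutant and wild type cells after culture and at 28.8 and 25.3 CPM in mutant and wild type cells before culture. Its culture fold was 1.58 (1.29 to 1.94) in mutant and 1.93 (1.41 to 2.61) in wild type cells. Dhcr7, the reductase of the last step of the Kandutsch-Russell route to cholesterol, was at 29.0 and 40.7 CPM in mutant and wild type cells after culture and at 23.1 and 17.3 CPM in mutant and wild type cells before culture, so that wild type cells held both the highest and the lowest value. Sqle, squalene epoxidase, which catalyses a rate-limiting step, had culture folds of 1.06 (0.914 to 1.22) in mutant and 1.02 (0.792 to 1.31) in wild type cells. Cyp51, lanosterol demethylase, had a culture fold of 0.835 (0.721 to 0.964) in mutant and 1.16 (0.943 to 1.42) in wild type cells. Fdft1, squalene synthase, had folds of 1.40 (1.21 to 1.60) and 1.60 (1.28 to 1.98), but its exons share 774 bases with Ctsb on the other strand. Exons of Cyp51 share 166 bases with Akap9 and those of Lss, lanosterol synthase, 150 with 4930483K19Rik in the same way. Tm7sf2, a sterol reductase, Lss, and Ebp, a sterol isomerase, had intervals that included 1 in both genotypes. Nsdhl and Hsd17b7, enzymes of the demethylation at carbon 4, had intervals above 1 in mutant cells alone, at 1.40 (1.06 to 1.86) and 1.49 (1.14 to 1.93); whether the genotypes differed there is covered by the ratios given further on. Stard4, which carries cholesterol between membranes, had folds of 1.54 (1.33 to 1.79) in mutant and 1.79 (1.44 to 2.22) in wild type cells.

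Fasn, of the fatty acid branch, was at 373 and 469 CPM in mutant and wild type cells after culture and at 292 and 194 CPM in mutant and wild type cells before culture. Wild type cells held both extremes, and the mutant libraries lay between them. Its culture fold was 1.28 (1.20 to 1.37) in mutant cells, which became 0.938 without the TMM factor, and 2.42 (2.18 to 2.67) in wild type cells, which stayed above 1 at 1.57. With stray reads subtracted and the scaling recomputed the wild type fold was 1.94 (1.75 to 2.15) and no longer called. Acaca, the cytosolic acetyl-CoA carboxylase that makes malonyl-CoA for Fasn, lay the other way, with folds of 0.704 (0.607 to 0.813) in mutant and 0.584 (0.453 to 0.744) in wild type cells. Acacb had folds of 0.631 (0.474 to 0.828) and 0.666 (0.424 to 1.01).

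Upstream, Acly, the ATP citrate lyase that makes acetyl-CoA from citrate, was at 248 and 229 CPM in mutant and wild type cells after culture and at 190 and 157 CPM in mutant and wild type cells before culture. Its folds of 1.31 (1.21 to 1.43) and 1.46 (1.28 to 1.67) were below 1 without the TMM factor. Acss2, which makes acetyl-CoA from acetate, had folds of 0.547 (0.341 to 0.845) in mutant and 0.877 (0.463 to 1.56) in wild type cells, on 25 and 15 counts after culture.

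Fads1, the delta-5 desaturase of polyunsaturated fatty acids, was called higher in both genotypes. It was at 140 and 162 CPM in mutant and wild type cells after culture and at 60.2 and 54.0 CPM in mutant and wild type cells before culture. The cultured libraries did not overlap those before culture, with folds of 2.32 (2.05 to 2.63) in mutant and 3.01 (2.51 to 3.60) in wild type cells. With stray reads subtracted and the scaling recomputed the mutant fold was 2.12 (1.87 to 2.41) and no longer called. Its neighbour on chromosome 19, the delta-6 desaturase gene Fads2, had folds of 1.07 (0.881 to 1.29) and 1.58 (1.19 to 2.08). Elovl5, which lengthens polyunsaturated chains, had folds of 1.96 (1.75 to 2.20) in mutant and 1.79 (1.5 to 2.13) in wild type cells. Elovl1, which lengthens very long saturated chains, had folds of 1.92 (1.60 to 2.31) and 1.95 (1.46 to 2.58), and its exons share 53 bases with Cdc20 on the other strand. Elovl6, which takes palmitate to stearate, was at 0.846 (0.682 to 1.04) and 0.969 (0.684 to 1.35).

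The stearoyl-CoA desaturases introduce the first double bond into saturated chains. Scd2 was at 363 and 474 CPM in mutant and wild type cells after culture and at 410 and 341 CPM in mutant and wild type cells before culture. Again wild type cells held both extremes, and the culture fold was 0.885 (0.829 to 0.944) in mutant and 1.39 (1.27 to 1.52) in wild type cells, the last becoming 0.901 without the TMM factor. Scd1 was at 12.6 and 10.9 CPM in mutant and wild type cells after culture and at 23.3 and 20.3 CPM in mutant and wild type cells before culture. Its fold was 0.538 in both genotypes, with intervals of 0.377 to 0.752 in mutant and 0.291 to 0.931 in wild type cells. Scd1 has close paralogues in Scd3 and Scd4, so its low counts are uncertain.

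Ratios of 2 genes within a library need no scaling between libraries, and pairs of related enzymes were compared in this way after the values had been seen. Per kb, Fads1 stood at 2.74 and 2.67 times Fads2 in mutant and wild type cells after culture, and at 1.26 and 1.41 times Fads2 in mutant and wild type cells before culture. That ratio was 2.17 times (1.74 to 2.71) as large after as before culture in mutant cells and 1.90 times (1.37 to 2.62) as large in wild type cells. Elovl5 stood at 9.43 and 9.25 times Elovl6 after culture in mutant and wild type cells, and at 4.06 and 5.01 times before culture. The change with culture was 2.32 (1.83 to 2.94) in mutant and 1.85 (1.28 to 2.67) in wild type cells. For both pairs the cultured libraries did not overlap those before culture, and the genotypes lay close together at each stage.

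Scd2 stood at 25.6 and 38.4 times Scd1 per kb in mutant and wild type cells after culture, and at 15.6 and 14.9 times in mutant and wild type cells before culture. Stray reads enter such ratios where a gene has few counts. With them subtracted the ratios were 31.2 and 46.3 in mutant and wild type cells after culture. Before culture they were 18.9 and 21.4, with the order of the genotypes turned. Fasn stood at 4.77 and 7.51 times Acaca in mutant and wild type cells after culture, and at 2.63 and 1.82 times in mutant and wild type cells before culture. The change with culture in the ratio of Fasn to Acaca was 1.82 (1.55 to 2.13) in mutant and 4.14 (3.19 to 5.37) in wild type cells, 2 intervals that do not overlap. Srebf1 stood at 0.391 and 0.399 times Srebf2 in mutant and wild type cells after culture, and at 0.282 and 0.185 times in mutant and wild type cells before culture. Insig1 stood at 4.43 and 3.56 times Insig2 in mutant and wild type cells after culture, and at 4.09 and 4.16 times in mutant and wild type cells before culture, with overlapping intervals throughout.

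**Figure D3:**
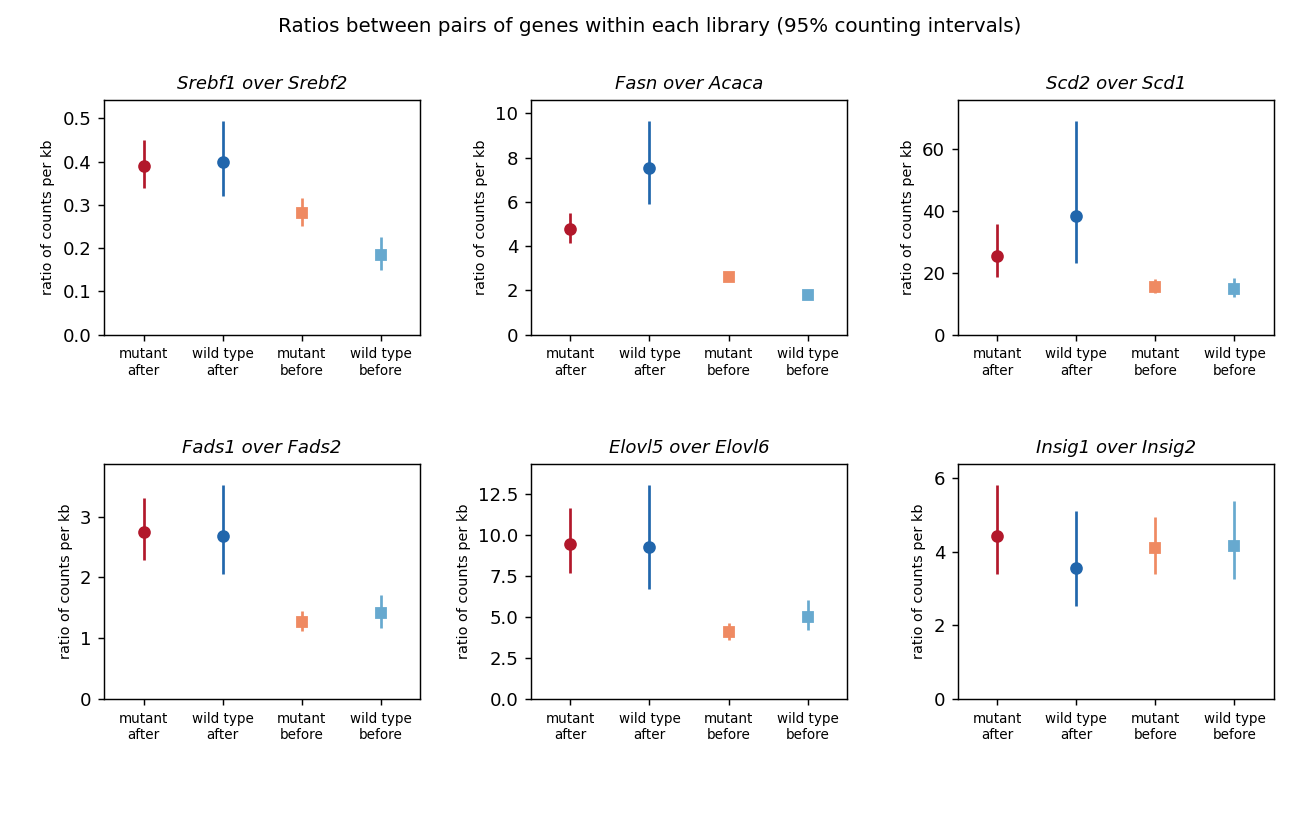
Ratio of counts per kb between 2 genes within each library with 95% counting intervals, for mutant cells after culture, wild type cells after culture, mutant cells before culture and wild type cells before culture (1 library each, linear axes from 0). The ratios of Fads1 to Fads2 (2.74, 2.67, 1.26 and 1.41) and of Elovl5 to Elovl6 (9.43, 9.25, 4.06 and 5.01) separate by culture, while that of Insig1 to Insig2 (4.43, 3.56, 4.09 and 4.16) does not.

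Mutant and wild type cells were compared after culture and, separately, before culture. After culture 0 of the 35 genes were called higher or lower, against 0.244% and 0.0731% of 12309 genes tested. The median log2 fold of mutant over wild type cells was -0.015 for the 35 genes and 0.0040 for all genes. Intervals wholly above 1 were found for 0 of 35 genes, against 9.48% of all genes, and intervals wholly below 1 for 3 (8.57%), against 12.3%. The 3 were Fasn at 0.797 (0.724 to 0.878), Scd2 at 0.767 (0.696 to 0.844) and Cyp51 at 0.790 (0.635 to 0.986). Fasn and Scd2 lay below 1 under every scaling tried. Without the TMM factor 2 of the 35 genes lay wholly below 1, against 8.58% of all genes, and 3 wholly above 1, against 13.3%. With DESeq2 size factors 8 of the 35 lay wholly below 1, against 16.6% of all genes. Srebf1 was at 0.899 (0.720 to 1.13) and Hmgcs1 at 1.12 (0.958 to 1.31).

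Before culture 0 of the 35 genes were called higher or lower, against 0.0158% and 0.0475% of 18934 genes tested. The median log2 fold was 0.18 for the 35 genes and 0.04 for all genes. An interval wholly above 1 was found for 11 of 35 genes (31.4%), against 17.6% of all genes, and an interval wholly below 1 for 0, against 8.54%. The genes furthest from 1 were Srebf1 at 1.79 (1.46 to 2.22) and Fasn at 1.51 (1.40 to 1.62). The other 9 lay between 1.13 for Hmgcs1 and 1.34 for Dhcr7, and included Scd2 at 1.20 (1.14 to 1.27) and Srebf2 at 1.17 (1.08 to 1.28). Of the 35 genes 27 had a fold above 1 with TMM, against 10450 of 18934 genes tested. Without the TMM factor 23 of the 35 did, and the number of all genes was not computed. Only 4 of the 11 intervals, those of Acly, Srebf1, Fasn and Scd2, stayed above 1 without the TMM factor (9.45% of all genes), and the same 4 with stray reads subtracted and the scaling recomputed (9.52% of all genes), where Elovl5 fell wholly below 1.

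The 2 genotype folds were then set against each other for each gene, as the ratio of the fold after culture to the fold before culture. No gene of the 35 was called, against 0.14% of 17910 genes called higher and 0.162% called lower. The ratio lay wholly below 1 for 9 genes (25.7%), against 15.7% of all genes, and wholly above 1 for 0, against 6.31%. Its median was -0.22 on the log2 scale over the 35 genes and -0.03 over all genes. Without the TMM factor the median of the 35 was -0.040, and intervals lay wholly below 1 for 4 genes, Dhcr7, Srebf1, Fasn and Scd2 (8.12% of all genes), and wholly above 1 for 3, Acat2, Acaca and Elovl5 (11.8% of all genes). With stray reads subtracted and the scaling recomputed the same 4 lay wholly below 1 (8.65% of all genes), and 1 gene, Elovl5, wholly above 1 (6.67% of all genes). The lowest ratios were those of Srebf1 at 0.501 (0.371 to 0.677), Fasn at 0.529 (0.469 to 0.597), Dhcr7 at 0.532 (0.352 to 0.804) and Scd2 at 0.637 (0.570 to 0.712). The other 5 were Fads2 at 0.674, Fdps at 0.689, Cyp51 at 0.720, Fads1 at 0.771 and Srebf2 at 0.783. For Nsdhl and Hsd17b7 the ratio was 1.10 (0.647 to 1.87) and 1.17 (0.732 to 1.88), and for Hmgcs1 0.988 (0.828 to 1.18).

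Fasn and Scd2 were each lower in mutant than in wild type cells after culture and higher in mutant than in wild type cells before culture, with intervals clear of 1 both times. These 2 genes are 5.71% of the 35, near the 573 of 12294 genes tested at both stages (4.66%) that had this pattern, and its opposite was found for 95 (0.773%) of all genes and 0 of the 35. The direction of both genes held under each scaling tried and with stray reads subtracted. The within-library ratio of Fasn to Acaca changed by 0.635 (0.483 to 0.836) for mutant over wild type cells after culture and 1.45 (1.27 to 1.65) before culture. It rests on the same Fasn counts and on a pair compared after the values had been seen, so it is no separate support for the turn. The corresponding change in the ratio of Scd2 to Scd1 had an interval that included 1 both times, at 0.666 (0.367 to 1.21) after culture and 1.04 (0.819 to 1.33) before culture.

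**Figure D4:**
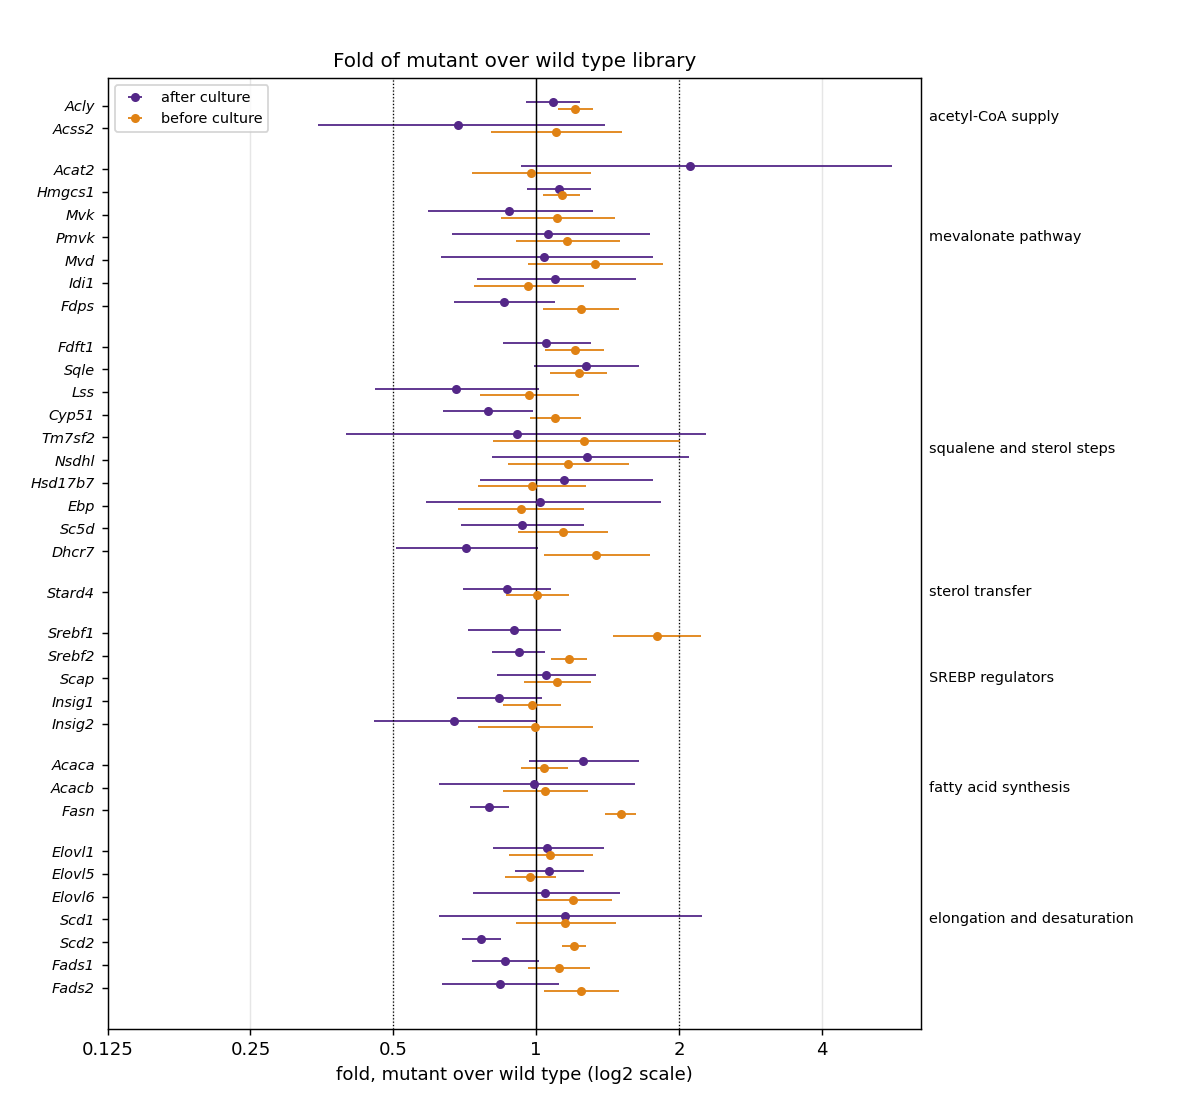
Fold of mutant over wild type cells for each of the 35 genes on a log2 axis with 95% counting intervals, after culture and before culture, with dotted lines at 2-fold. No interval lies wholly beyond a dotted line; Fasn and Scd2 lie left of 1 after culture (0.797 and 0.767) and right of 1 before culture (1.51 and 1.20), and Srebf1 lies at 1.79 before culture.

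Markers of other cell types moved with some of these differences. The 11 adipocyte markers, a cell type rich in Fasn, Scd1 and Srebf1, summed to 174 and 303 CPM in mutant and wild type cells after culture, and to 64.7 and 62.8 CPM in mutant and wild type cells before culture. Of 7 adipocyte markers tested between the genotypes after culture, 5 were below 1 for mutant over wild type cells, 3 of them called lower, and 2 were above 1. Among those below 1, Adipoq, which encodes adiponectin, was at 12.9 CPM in mutant and 54.6 CPM in wild type cells after culture, a fold of 0.236 (0.158 to 0.347). No adipocyte marker was at 0 in any library. The summed markers were higher after culture in both genotypes, but the single markers were divided. With culture, 6 of 11 adipocyte markers tested lay above 1 and 5 below 1 in mutant cells. In wild type cells 7 of 8 tested lay above 1 and 1 below 1. Srebf1 and Fasn had culture folds above 1 with TMM in both genotypes, and Scd1 had a fold of 0.538 in both. The 10 stromal markers summed to 1940 and 2167 CPM in mutant and wild type cells after culture, and to 6011 and 4032 CPM in mutant and wild type cells before culture. All 10 were higher in mutant than in wild type cells before culture, and only Lum, in wild type cells after culture, was at 0. With culture, 8 of the 10 lay below 1 and 2 above 1 in each genotype, with 1 called higher in each. The 10 hepatocyte markers summed to 38.9 and 36.4 CPM in mutant and wild type cells after culture and to 107 and 109 CPM in mutant and wild type cells before culture. The 8 leukocyte markers summed to 81.9 and 42.9 CPM in mutant and wild type cells after culture and to 63.1 and 62.6 CPM in mutant and wild type cells before culture, with Coro1a and Cd52 at 0 in wild type cells after culture. After culture 1 marker alone made up 58.9 CPM of the sum in mutant cells and 29.8 CPM in wild type cells. With culture, 4 of 5 leukocyte markers tested were below 1 in mutant cells and 3 of 4 in wild type cells. The part of these cells, or of the difference in stray reads and depth between libraries, in the synthesis gene values was not tested.

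Other genes of lipid metabolism came from lists set by function, with earlier results of these data known. They are given for comparison with the background shares of 5.19% and 3.62% in mutant and 8.17% and 5.77% in wild type cells. Of 10 further sterol and isoprenoid genes, none was called in mutant cells and 1 was called higher in wild type cells, Ggps1, which makes geranylgeranyl diphosphate, at 3.41 (2.60 to 4.46). Of 10 genes for SREBP processing and degradation, none was called in mutant cells and 1 was called higher in wild type cells, Rnf145, a ubiquitin ligase, at 2.54 (2.12 to 3.04).

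Lists for taking up and exporting lipid held called genes in both genotypes. Of 12 genes of sterol uptake and trafficking, 2 were called higher in mutant and 5 in wild type cells, with none lower. The receptor gene Scarb1, which takes sterol from high-density lipoprotein, had culture folds of 6.82 (6.18 to 7.55) and 8.62 (7.44 to 10.0) in mutant and wild type cells, and the lysosomal lipase gene Lipa of 3.83 (3.30 to 4.45) and 3.77 (3.05 to 4.67). Of the 10 LXR and sterol efflux genes, 4 of 10 tested were called higher in mutant cells, and 3 of 8 tested were called higher and 1 lower in wild type cells. Apoe, which encodes a lipoprotein component, was at 1083 and 1184 CPM in mutant and wild type cells after culture and at 24.5 CPM in each genotype before culture. Its folds were 44.1 (38.6 to 50.7) and 48.4 (40.2 to 58.6). Nr1h2, the sterol receptor LXR beta, had folds of 2.53 (2.16 to 2.95) and 3.53 (2.81 to 4.44), and Mylip, a ubiquitin ligase induced by LXR, of 2.65 (2.32 to 3.03) and 2.45 (2.0 to 3.0). Others of the list, named after their values were seen, lay the other way. Abca1, an LXR target that exports cholesterol, had folds of 0.520 (0.476 to 0.567) in mutant and 0.551 (0.484 to 0.625) in wild type cells and was not called. The gene called lower in wild type cells was Cyp27a1, sterol 27-hydroxylase, at 0.117 (0.0139 to 0.441) on 2 counts after culture.

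Of 25 accessory genes of fatty acid synthesis, 4 of 24 tested were called higher and 2 lower in mutant cells, and 5 of 22 tested higher and 1 lower in wild type cells. Those called lower, named after their values were seen, were Elovl4 and Hacd4, deposited as Ptplad2, in mutant cells and Hacd4 in wild type cells, on 3 or 4 counts after culture. Acsl4, an acyl-CoA synthetase, had folds of 3.76 (3.31 to 4.26) and 4.12 (3.45 to 4.92), Pgd, which yields NADPH, of 2.57 (2.17 to 3.05) and 2.96 (2.31 to 3.79), and Hacd3, a dehydratase of chain elongation deposited as Ptplad1, of 2.37 (2.03 to 2.76) and 2.01 (1.61 to 2.49). Of 15 genes of fatty acid oxidation, 1 was called higher in each genotype, the pyruvate dehydrogenase kinase gene Pdk4, at 4.06 (3.03 to 5.47) and 4.83 (3.23 to 7.28). Of 8 genes of fatty acid uptake, 5 were called higher in each genotype and 1 lower in mutant cells, the transporter gene Slc27a1, likewise named after its value was seen. The fatty acid receptor gene Cd36 had folds of 16.0 and 16.8, and the fatty acid binding protein genes Fabp4 of 11.1 and 10.5 and Fabp5 of 4.73 and 7.05, in mutant and wild type cells. The median log2 fold of the uptake list was 1.94 in mutant and 2.61 in wild type cells, against 0.36 and 0.60 for the 35 synthesis genes; without the TMM factor each of these is lower by 0.45 in mutant and 0.62 in wild type cells. Fabp4 and Cd36 are expressed by capillary endothelium and also by adipocytes, whose summed markers are given above.

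**Figure D5:**
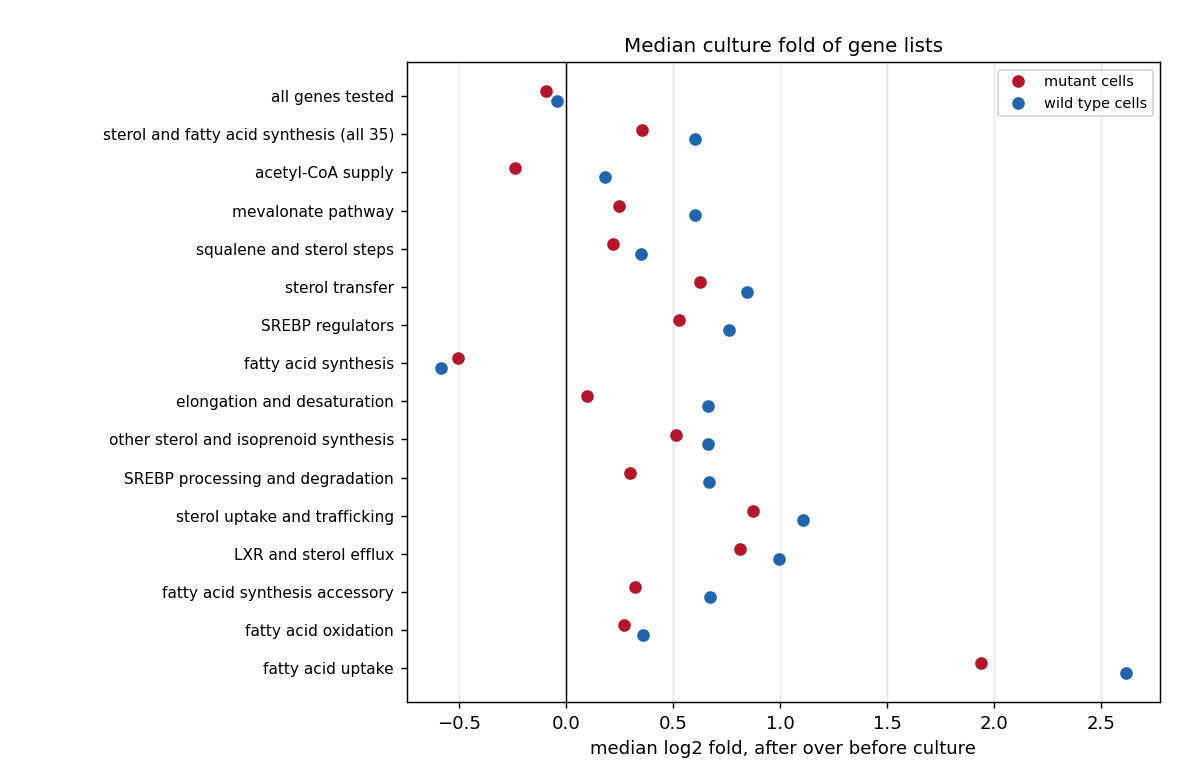
Median log2 fold after over before culture of each gene list in mutant and wild type cells, with all genes tested in the top row. The 35 synthesis genes lie at 0.36 and 0.60 and the fatty acid uptake list at 1.94 and 2.61, with all genes at -0.097 and -0.046; without the TMM factor all points move left by 0.45 (mutant) or 0.62 (wild type).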

How the data were processed

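RNA from 4 libraries, 1 per genotype and culture state, was sequenced with a stranded kit as paired reads of 75 nt (the labels' protocols). The authors deposited raw counts of read pairs per gene symbol. The authors made these counts with bcl2fastq, STAR and HTSeq 0.11.2 on mm10, per the submitters' processing notes, and the names of the deposited tables state that duplicates were removed with sambamba. Annotation, strand setting and other versions are not given in those sources. The HTSeq summary classes were kept out of all totals.

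Here counts were scaled with TMM over all 4 libraries (edgeR 4.0.16, R 4.3.3). Levels have exact Poisson 95% intervals and folds the Clopper-Pearson interval of the count share (SciPy 1.17.1). Genes under 20 counts in both libraries were left out of a comparison, and the ratio of genotype folds used a Wald interval from the 4 counts on the log scale. The call procedure was run on simulated Poisson counts, which hold counting error alone, as the intervals assume. That run cannot show how calls would fare with variation between litters, sorts or libraries. Alternatives were DESeq2 1.42.0 size factors, no TMM factor, other count minimums, a 1.5-fold limit and subtraction of stray reads with the scaling recomputed; subtraction with the scaling kept was added after seeing the data. Exon lengths came from GENCODE on GRCm38, the assembly of mm10, using transcripts paired with RefSeq where there were any, for 98.1% of symbols. Regulators, Hmgcs1 and called genes were given in every library, and from each other list up to 3 called genes with the most counts, or else 1. Values of 1 gene so named are not reported here, but list totals include it. The members and lists were chosen with earlier results of these data known.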

Additional observations from a re-analysis of the deposited data

Results flagged for a closer look

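The ratio of the genotype fold after culture to that before culture was 0.529 for Fasn and 0.637 for Scd2. Both are listed because mutant cells were lower than wild type cells after culture and higher before culture, a pattern of 5.71% of the 35 genes and of 4.66% of all genes tested at both stages. Each group has 1 library, so this difference was not tested against replicates, and the intervals of 0.469 to 0.597 for Fasn and 0.570 to 0.712 for Scd2 cover counting error only.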

How the results depend on the processing

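No paired analysis was possible because each group holds 1 library. No called value changed sign. Without the TMM factor, 0 of the 35 genes were called higher in mutant cells and 0 in wild type cells, 2 were called lower in wild type cells, and the median log2 culture fold was -0.092 in mutant and -0.023 in wild type cells. With stray reads subtracted and the scaling recomputed, 0 of the 35 genes were called higher with culture in mutant cells, against 881 of 18807 genes tested. With a limit of 1.5-fold, 4 genes were called higher with culture in mutant and 6 in wild type cells, and 1 gene, Fasn, had a genotype ratio called lower. The shares of all genes called at 1.5-fold or without the TMM factor were not computed. The counts of calls under those 2 settings therefore have no background to be set against. Of 175 single-gene values, 59 moved beyond their counting interval without the TMM factor and 19 with stray reads subtracted and the scaling recomputed, but none with DESeq2 size factors or with subtraction and the scaling kept. With single libraries, depth limits most the genes with few counts in wild type cells after culture, such as Acat2 with 7.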
